A study of Oryza sativa with 4 samples.

Results

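The genes described here make the diterpenoid phytoalexins of rice, the momilactones, phytocassanes and oryzalexins. They were chosen by gene ID from a fixed list of 10 genes, namely CPS2, CPS4, KSL4, KSL7, KSL8, KSL10, CYP99A2, CYP99A3, MAS and CYP76M7, and the rule itself used no measured value, although the list was drawn up with earlier results of these data known. All 10 were in the deposited table of 31414 genes, and they made up 11 of its 37972 transcripts because CPS4 has 2 listed transcripts. RNA was sequenced from 2 libraries of NT (non-transgenic) rice and 2 libraries of OsNAC14OX rice, in which the promoter PGD1, described in the labels as active in the whole plant body, drives the transcription factor gene OsNAC14. Neither group received a drought treatment, and both were labelled as leaves. The study's methods give the cultivar Nakdong for both groups, an age of 2 weeks and a single transgenic line (line 11), while the sample labels give Nipponbare and 20 days. The study calls the samples of a group biological duplicates, the number of plants in each was not found in the sources used here, and p-values measure the spread between these libraries. The deposited NT columns carry what reads like a year in their names, and those of OsNAC14OX do not. If this marks a batch, it cannot be told apart from the overexpression.

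Diterpenoid phytoalexins are antimicrobial compounds that rice makes after attack by fungi or bacteria, and momilactones are also released from roots, where they inhibit the growth of neighbouring plants. Their synthesis starts from geranylgeranyl diphosphate in the plastid. A class II cyclase (a CPS enzyme) folds it to copalyl diphosphate in either the ent or the syn form, and a class I cyclase (a KSL enzyme) converts that product to a diterpene skeleton. Cytochromes P450 and a dehydrogenase then oxidise the skeleton. The syn form, made by CPS4, leads to momilactones through KSL4 and to oryzalexin S through KSL8. The ent form, made by CPS2 for defense, leads to phytocassanes through KSL7 and to the other oryzalexins through KSL10. Gibberellin hormones start from the same ent intermediate, made by a separate CPS gene. The genes for momilactones lie together on chromosome 4 and those for phytocassanes on chromosome 2, which are among the best known biosynthetic gene clusters of plants.

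Several facts about the libraries preceded the comparison. The OsNAC14 transcript (Os01t0675800-01) had an FPKM (a read density that the authors scaled by transcript length and library size) of 3.16 and 3.70 in NT and of 16.4 and 16.3 in OsNAC14OX, and it was called higher with a log2 fold change of 1.99 ± 0.11 (SE; limma, adjusted p = 0.0204). The steps between low FPKM values corresponded to about 37000000 and 56400000 reads for NT replicates 1 and 2 and to about 36200000 and 33100000 reads for OsNAC14OX replicates 1 and 2. In NT replicate 2 the steps lacked the even multiples seen in the other 3 libraries, so its depth and read numbers are less certain. All 10 transcripts of the leaf marker list (9 genes for chlorophyll-binding proteins and the Rubisco small chain) were listed, and their summed FPKM was 5074 to 5338 in NT and 5249 to 6730 in OsNAC14OX. The lowest of them, Os02t0764500-02, was close to 0 in replicate 2 of both groups. The root marker list was high as well, against the leaf label. Of its 5 IDs 4 were listed, none at 0, and RCc3 (Os02t0662000-01), a root-specific protein, had an FPKM of 391.6 and 389.7 in NT and of 181.8 and 368.6 in OsNAC14OX. The silicon influx aquaporin (Os02t0745100-01), another root marker, had 166.3 and 165.6 in NT and 86.3 and 145.9 in OsNAC14OX. Their summed FPKM was 641.7 to 649.8 in NT, 313.8 in OsNAC14OX replicate 1 and 601.2 in OsNAC14OX replicate 2. OsNAC14OX replicate 1 thus stood apart from the other 3 libraries, and results that rest on it are given with and without it. Transcripts described as pollen or anther proteins (50 genes) summed to 3606 to 3885 in NT and 3366 to 4169 in OsNAC14OX, with 0 of 41 tested genes called. The 2 with the smallest p were Os03t0342100-01 (log2 fold change 0.83, limma, adjusted p = 0.386) and Os03t0859100-02 (log2 fold change -0.43, limma, adjusted p = 0.395).

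The phytoalexin genes were expressed at a low level in these plants. Summed over the 10 genes, FPKM was 21.1 and 21.3 in NT and 26.9 and 32.6 in OsNAC14OX, out of 735318 to 765959 over all transcripts. Both OsNAC14OX libraries lay above both NT libraries in this sum, most of which came from CPS4, KSL8 and CYP99A3. In NT, the levels followed the order CPS4, KSL8, MAS, CYP99A3, CPS2, KSL7, KSL4, KSL10, CYP76M7 and CYP99A2. Of these neighbours in the order, MAS and CYP99A3 were the pair whose ranges overlapped. In OsNAC14OX, CYP99A3 and CPS2 stood before MAS in the order, which was otherwise as in NT. There the ranges overlapped for CPS4 with KSL8, CPS2 with MAS, KSL4 with KSL10, and KSL10 with CYP76M7. By mean FPKM, the 11 transcripts lay between percentile 5.50 (CYP99A2) and percentile 51.6 (KSL8) of all transcripts, near or below the middle of the transcriptome.

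**Figure D1:**
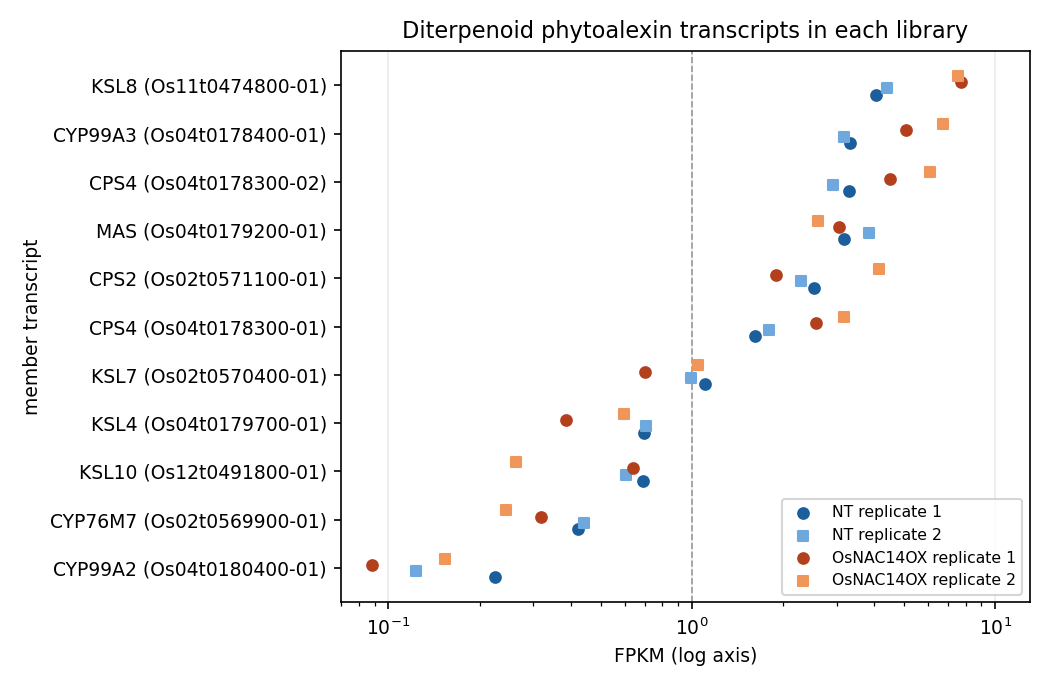
FPKM (log axis) of each of the 11 transcripts of the 10 phytoalexin genes in every library, with NT in blue and OsNAC14OX in red and orange; the dashed line marks an FPKM of 1. For KSL8, CYP99A3 and both CPS4 transcripts both OsNAC14OX points lie to the right of both NT points, while for MAS, KSL4 and CYP76M7 they lie to the left.

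By mean FPKM, genes of the syn branch lay on both sides of NT. CPS4, KSL8 and CYP99A3 had 1.70, 1.80 and 1.82 times the mean FPKM of NT in OsNAC14OX, whereas KSL4, MAS and CYP99A2, which act in the same momilactone pathway, had 0.702, 0.809 and 0.694 times. None of these differences passed the test over all transcripts, and KSL4 and CYP99A2 lay under its FPKM filter.

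CPS4 (Os04g0178300, chr4:5318069-5326425 on IRGSP-1.0) encodes the synthase of syn-copalyl diphosphate, the entry to momilactones and oryzalexin S. Summed over its transcripts, its FPKM was 4.90 in NT replicate 1, 4.72 in NT replicate 2, 7.06 in OsNAC14OX replicate 1 and 9.26 in OsNAC14OX replicate 2. The groups did not overlap, and both transcripts had this pattern. Os04t0178300-01 had 1.62, 1.80, 2.56 and 3.17 in the same order of libraries, and Os04t0178300-02 had 3.29, 2.92, 4.50 and 6.09. The log2 fold change, taken here and below on the authors' normalized log2(FPKM + 1) scale, was 0.55 ± 0.13 (SE) for the first (limma, adjusted p = 0.360) and 0.64 ± 0.18 for the second (limma, adjusted p = 0.414). The reads that the transcripts share were divided between them by the authors' counting, so their separate levels are less certain than the sum.

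KSL8 (Os11g0474800, chr11:16435034-16440299), the stemarene synthase that starts oryzalexin S, is the other user of the CPS4 product and lies outside both clusters. Its FPKM was 4.05 and 4.40 in NT and 7.69 and 7.54 in OsNAC14OX. Means were 4.23 ± 0.251 (SD, n = 2) and 7.62 ± 0.106 (SD, n = 2), so the replicates of each group lay close together and the groups were well apart. Its log2 fold change of 0.75 ± 0.10 (SE) was the highest among the phytoalexin genes, with a limma p of 0.00181 and an adjusted p of 0.143. Of all transcripts tested, 2.25% had a log2 fold change at or above this value. Behind it stood about 208.1 and 347.5 reads in NT and 386.7 and 347.9 in OsNAC14OX, as estimated from the FPKM, the transcript length and the depth.

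CYP99A3 (Os04g0178400, chr4:5332364-5334476) is a cytochrome P450 that oxidises the momilactone skeleton. Its FPKM was 3.32 and 3.18 in NT and 5.07 and 6.72 in OsNAC14OX, with no overlap and with a wider gap between the OsNAC14OX libraries than between the NT libraries. The log2 fold change was 0.72 ± 0.16 (SE; limma, adjusted p = 0.341). Without OsNAC14OX replicate 1 the log2 fold changes were 0.74 for KSL8, 0.89 for CYP99A3, and 0.65 and 0.82 for the CPS4 transcripts, and with OsNAC14OX replicate 1 as the single overexpression library they were 0.76, 0.55, 0.44 and 0.45. The direction was thus the same with either library, and the adjusted p (limma) stayed between 0.0828 and 0.232 in these fits.

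CYP99A2 (Os04g0180400, chr4:5484864-5486703), the close relative of CYP99A3 at the other end of the cluster, was the lowest of the genes. Its FPKM was 0.224 and 0.124 in NT and 0.0880 and 0.154 in OsNAC14OX, which came to about 13, 11, 5 and 8 reads. The groups overlapped, and with so few reads the counting error of each value is large. In the fit without the filter its log2 fold change was -0.06 ± 0.069 (SE; limma, adjusted p = 0.824). A transcript of unknown function, Os04t0180500-00 (chr4:5485028-5486605), overlaps CYP99A2, and how reads were divided between overlapping or near-identical genes was not stated in the sources used here.

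KSL4 (Os04g0179700, chr4:5428346-5434023) encodes the syn-pimaradiene synthase that commits the CPS4 product to momilactones. Its FPKM was 0.694 and 0.707 in NT and 0.386 and 0.597 in OsNAC14OX, with about 35.9 to 103 reads a library. Both OsNAC14OX libraries lay below both NT libraries, replicate 1 the further. It did not reach an FPKM of 1 in any library and so was outside the tested set. In a fit without the filter its log2 fold change was -0.18 ± 0.086 (SE; limma, adjusted p = 0.637).

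MAS (Os04g0179200, chr4:5385721-5387215), the dehydrogenase of the last step to momilactone A, had an FPKM of 3.17 and 3.83 in NT and of 3.06 and 2.61 in OsNAC14OX. The OsNAC14OX libraries lay below the NT libraries, but the gap between groups was smaller than the gap between replicates of either group. Its log2 fold change was -0.20 ± 0.14 (SE; limma, adjusted p = 0.733).

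The ent branch showed no difference between the groups that was larger than the spread between replicates, apart from a low level of CYP76M7 in both OsNAC14OX libraries. CPS2 was its most abundant listed gene, and the other listed genes of the branch had an FPKM of 1.11 or lower in every library.

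CPS2 (Os02g0571100, chr2:21844650-21847532) encodes the synthase of ent-copalyl diphosphate used for phytoalexins. Its FPKM was 2.53 and 2.29 in NT and 1.89 and 4.15 in OsNAC14OX. The OsNAC14OX libraries lay on either side of NT, and replicate 1 had 0.456 times the level of replicate 2. The log2 fold change of 0.21 ± 0.31 (SE; limma, adjusted p = 0.868) therefore rested on replicate 2, and without it the value was -0.20. Without OsNAC14OX replicate 1 it was 0.62, with a limma adjusted p of 0.279. The deposited gene model is short, at 1173 bases, and a transcript described as similar to ent-copalyl diphosphate synthase 2 (Os02t0570900-00, chr2:21842022-21843803) lies directly beside it. That transcript had an FPKM of 0.308 and 0.690 in NT and of 0.280 and 0.990 in OsNAC14OX, so it too was highest in OsNAC14OX replicate 2 and lowest in replicate 1. A hypothetical gene (Os02t0571000-00) overlaps both models, and reads of the 3 cannot be fully told apart.

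KSL7 (Os02g0570400, chr2:21765010-21773418), the ent-cassadiene synthase of the phytocassane pathway, had an FPKM of 1.11 and 0.994 in NT and of 0.699 and 1.05 in OsNAC14OX. The groups overlapped, and the log2 fold change was -0.11 ± 0.14 (SE; limma, adjusted p = 0.854). The value without OsNAC14OX replicate 1 was 0.014. KSL10 (Os12g0491800, chr12:18509842-18528700), the sandaracopimaradiene synthase of the oryzalexins, had 0.689 and 0.605 in NT and 0.640 and 0.263 in OsNAC14OX. Here replicate 2 was the low library and the groups overlapped. CYP76M7 (Os02g0569900, chr2:21740303-21741960), a P450 that hydroxylates the cassadiene skeleton, had 0.421 and 0.442 in NT and 0.318 and 0.245 in OsNAC14OX. Both OsNAC14OX libraries lay below both NT libraries, on about 12 to 37 reads a library. In the fit without the filter, its log2 fold change was -0.14 ± 0.052 (SE; limma, adjusted p = 0.540), and that of KSL10 was -0.17 ± 0.16 (SE; limma, adjusted p = 0.776).

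Taken over all 10 genes, no transcript was called. Tested transcripts had 2 or more libraries with an FPKM of 1 or higher, and calls were made at an adjusted p under 0.05 together with a 2-fold difference. Of the 11 phytoalexin transcripts, 7 of 6 genes were tested and 0 were called, against 168 of the 30251 transcripts tested (0.555%). The number over all transcripts depended on single libraries, with 0 calls without either NT library, 59 without OsNAC14OX replicate 1 and 772 without OsNAC14OX replicate 2. No phytoalexin transcript could be called in these fits, since none reached a 2-fold difference (highest log2 fold change 0.89). At an unadjusted limma p under 0.05 there were 4 transcripts of 3 genes (both of CPS4, KSL8 and CYP99A3), all higher in OsNAC14OX, against 4.09% of all transcripts tested that were higher at this p. This count was 2 without NT replicate 1, 1 without NT replicate 2, 5 without OsNAC14OX replicate 1 and 4 without OsNAC14OX replicate 2. In the fit without the filter, with all 11 transcripts in it, the count was again 4, against 4.53% of all transcripts. With 2 libraries against 2, an exact permutation test of a single gene cannot give a two-sided p below 0.333. In bulk leaf RNA, fewer cells of a type and less RNA per cell cannot be told apart.

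By their FPKM alone, 4 of the 11 transcripts had both OsNAC14OX libraries above both NT libraries and 3 had both below, while 4 overlapped. Such separation was common in these data, with 17.3% of all transcripts above and 24.2% below. The 3 transcripts that were lower, a share near that of all transcripts, belonged to KSL4, MAS and CYP76M7. KSL4 and CYP76M7 lay under the filter, and a contrast between steps of the pathway was not tested. In the fit without the filter, 5 of the 11 transcripts had a log2 fold change above 0 and 6 below it, with a median of -0.06 against 0.0041 over all transcripts. Over the 7 tested transcripts alone the median was 0.55, against 0.0032 over all tested transcripts, since all 4 transcripts under the filter had a negative value.

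On chromosome 4 the 5 genes spanned 168.6 kb, and a dependence of their values on position was not tested. CPS4 and CYP99A3, which lie 5.9 kb apart at one end, were the higher pair. MAS lies 51.2 kb further on, KSL4 41.1 kb beyond MAS and CYP99A2 50.8 kb beyond KSL4. These 3 had log2 fold changes of -0.20 ± 0.14, -0.18 ± 0.086 and -0.06 ± 0.069 (SE). The last 2 lay under the filter, and the groups overlapped in CYP99A2. The other genes of the segment with an FPKM of at least 5 were the transcripts of an actin-related gene beside CPS4. Os04t0177600-02 had 8.66 and 9.23 in NT and 7.57 and 9.23 in OsNAC14OX, and Os04t0177600-01 had 5.08 and 4.94 in NT and 5.78 and 4.76 in OsNAC14OX. Both overlapped between groups, so the gene on that side did not share the separation of CPS4 and CYP99A3. On the other side Os04t0179100-01, near MAS, had 1.05 and 1.93 in NT and 1.81 and 3.52 in OsNAC14OX, which also overlapped. Its log2 fold change was 0.58 ± 0.30 (SE; limma, adjusted p = 0.672), opposite in sign to that of MAS.

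On chromosome 2 the 3 phytoalexin genes spanned 107.2 kb, with 23 kb between CYP76M7 and KSL7 and 71.2 kb between KSL7 and CPS2. Over both clusters the list of neighbours held 14 genes, of which 6 were tested and 0 called. Of its tested transcripts, the one with the smallest p was Os02t0571300-01, a terpenoid synthase domain protein just beyond CPS2, with an FPKM of 0.980 and 1.17 in NT and of 1.93 and 1.47 in OsNAC14OX. The groups did not overlap, and the log2 fold change was 0.42 ± 0.14 (SE; limma, adjusted p = 0.511). The next terpene synthase-like transcript, Os02t0571800-00, lay under the filter at 0.485 and 0.479 in NT and 1.05 and 0.962 in OsNAC14OX. Its log2 fold change in the fit without the filter was 0.46 ± 0.064 (SE; limma, adjusted p = 0.235), and it was named after its values were seen. Os04t0180500-00, the transcript over CYP99A2, was also under the filter, at 0.887 and 1.08 in NT and 0.443 and 0.666 in OsNAC14OX, and had a log2 fold change of -0.33 ± 0.097 in that fit (SE; limma, adjusted p = 0.471). The tested neighbours' median log2 fold change was 0.18.

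**Figure D2:**
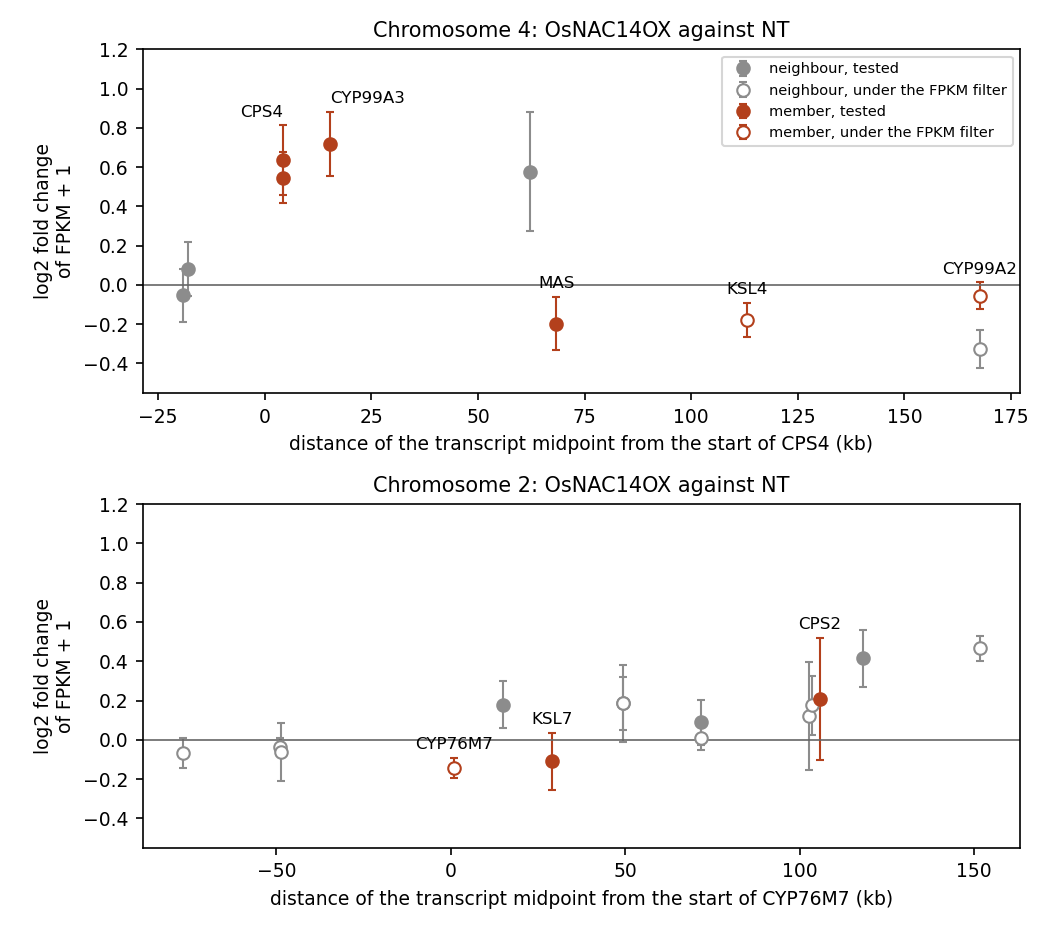
Log2 fold change of FPKM + 1 in OsNAC14OX against NT (points; bars are the SE of the limma fit) by distance of the transcript midpoint from the start of CPS4 on chromosome 4 and of CYP76M7 on chromosome 2, in kb. The listed phytoalexin genes are in red, and all other genes of the segments, terpene synthase and P450 genes included, are in grey. Open points lay under the FPKM filter. CPS4 and CYP99A3 at one end of the chromosome 4 cluster lie above 0, and MAS, KSL4 and CYP99A2 lie below it.

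Ratios within a library do not depend on its depth, and they showed how the pathway's steps stood to each other. CPS4 had 7.07 and 6.67 times the FPKM of KSL4 in NT, and 18.3 and 15.5 times in OsNAC14OX. The groups lay far apart relative to their replicates, although KSL4 had few reads. CPS4 to CYP99A3, adjacent genes, was 1.48 in each NT library, and 1.39 and 1.38 in OsNAC14OX. The groups did not overlap here either, within a narrow range of 1.38 to 1.48. CPS4 to KSL8 was 1.21 and 1.07 in NT and 0.918 and 1.23 in OsNAC14OX, and overlapped. CYP99A3 to MAS was 1.05 and 0.829 in NT and 1.66 and 2.58 in OsNAC14OX, without overlap. CYP99A3 to CYP99A2, the related P450 pair, was 14.8 and 25.7 in NT and 57.7 and 43.8 in OsNAC14OX, with a denominator of few reads. CPS2 to KSL7, the first steps of the phytocassane pathway, was 2.28 and 2.30 in NT and 2.71 and 3.97 in OsNAC14OX. Neither this ratio nor that of CYP99A3 to CYP99A2 overlapped between groups. CPS4 and CYP99A3 were higher in both OsNAC14OX libraries, and KSL4 and MAS were lower in both. The ratios of CPS4 to KSL4 and of CYP99A3 to MAS therefore could not overlap, and they restate the values of the single genes. How often ratios of other gene pairs separate the groups was not computed. These ratios were not tested.

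**Figure D3:**
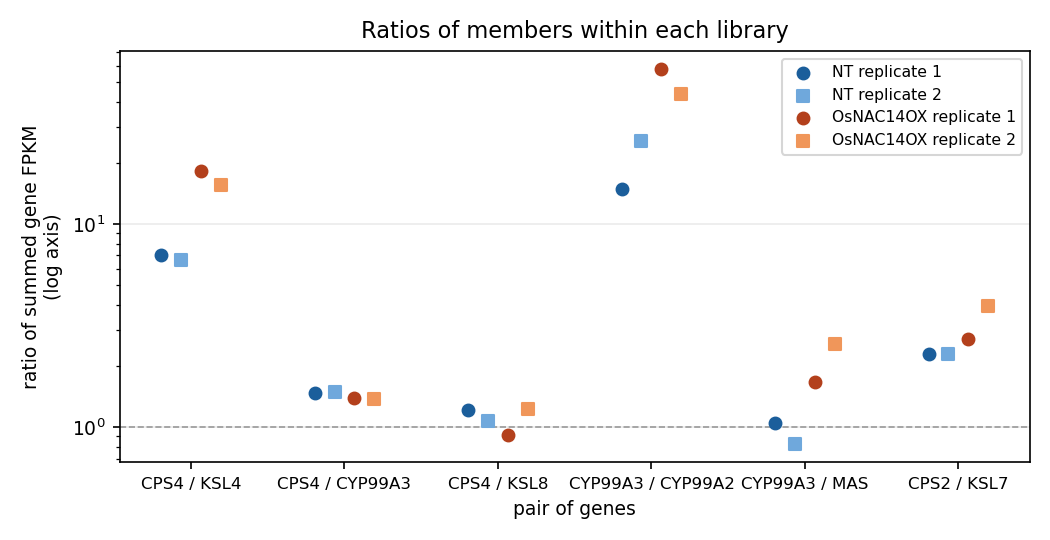
Ratio of the FPKM of gene pairs (summed over transcripts, log axis) within each library, with NT in blue and OsNAC14OX in red and orange. The ratio of CPS4 to KSL4 is 6.67 to 7.07 in NT and 15.5 to 18.3 in OsNAC14OX. That of CPS4 to CYP99A3 lies between 1.38 and 1.48 in all libraries and is lower in both OsNAC14OX libraries.

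The OsNAC14OX replicates differed more from each other than the NT replicates did. The median absolute difference between replicates on the normalized log2 scale was 0.110 in NT and 0.208 in OsNAC14OX over the 11 phytoalexin transcripts, and 0.116 and 0.173 over all tested transcripts. OsNAC14OX replicate 1 was below replicate 2 in 7 of the 11 transcripts, or 63.6%, close to the 61.7% of all tested transcripts. KSL8 was nearly equal between them, with a ratio of replicate 1 to replicate 2 of 1.02, whereas CPS2 had 0.456 and KSL10 had 2.43.

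Of 18 transcripts of regulators known from the response to chitin and other elicitors, 15 were above their NT mean in OsNAC14OX replicate 1. The other 3 were below it. In OsNAC14OX replicate 2, 6 were above and 12 below, the same split as in NT replicate 1. NT replicate 2 had 12 above and 6 below. Some genes count with several transcripts, and the share of all transcripts above their NT mean was not computed. This list holds receptors, MAP kinases and transcription factors that act before phytoalexin genes in defense, and 12 of its 12 genes (18 transcripts) were tested and 0 called, with a median log2 fold change of 0.095. Without OsNAC14OX replicate 2, 2 of them were called. The summed FPKM was 410.8 and 446.0 in NT, 818.3 in OsNAC14OX replicate 1 and 341.9 in OsNAC14OX replicate 2. WRKY62 (Os09t0417800-01), a WRKY factor described as a repressor of rice defense, had 11.0 and 14.0 in NT and 26.6 and 13.3 in OsNAC14OX. WRKY76 (Os09t0417600-02), its relative, had 12.0 and 14.9 in NT and 99.1 and 15.0 in OsNAC14OX. Both were high in OsNAC14OX replicate 1 alone, and adjusted p (limma) was 0.704 and 0.716. The 3 transcripts below their NT mean in that library, named after their values were seen, were those of a helix-loop-helix protein (Os01t0196300-01, 0.521 times its NT mean) and of a bZIP factor (Os04t0637000-01, 0.704 times, and Os04t0637000-02, 0.807 times). In that library the median elicitor transcript stood at 1.44 times its NT mean, the median root marker at 0.493 times and the median phytoalexin transcript at 0.874 times. In OsNAC14OX replicate 2 these medians were 0.890, 0.942 and 0.995. The part of the elicitor genes or root markers in the levels of the phytoalexin genes was not tested.

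**Figure D4:**
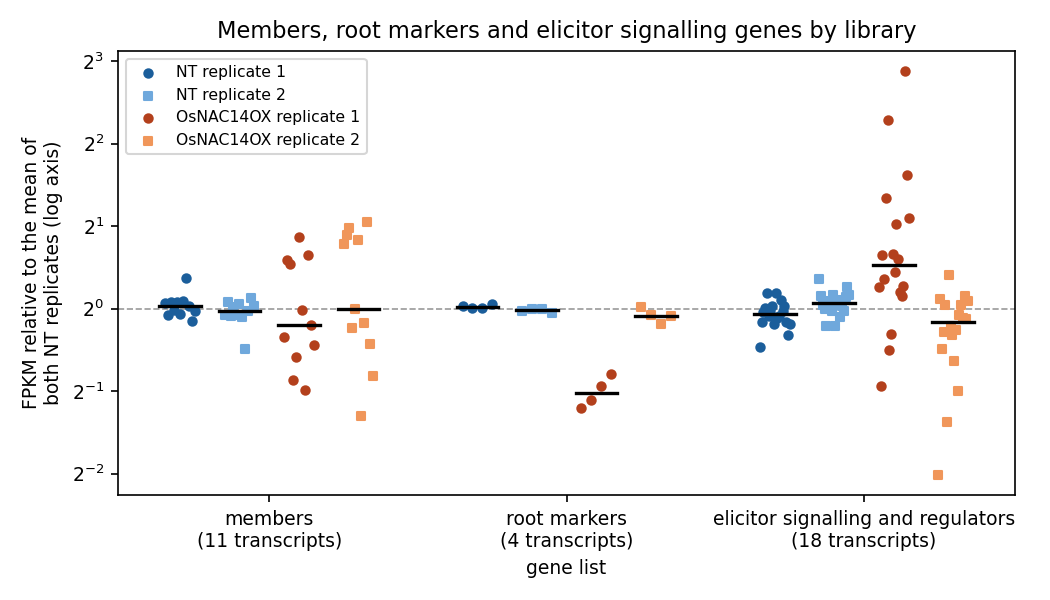
FPKM of each transcript relative to the mean of both NT replicates (log axis) for the 11 phytoalexin transcripts (members), 4 root markers and 18 transcripts of elicitor signalling genes and regulators, by library; black bars are medians. OsNAC14OX replicate 1 has a median of 0.493 for root markers and 1.44 for elicitor genes, against 0.942 and 0.890 in replicate 2, while the phytoalexin transcripts spread to both sides in both libraries.

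No listed gene of the plastid pathway upstream of geranylgeranyl diphosphate passed the test. The list held no gene described as a geranylgeranyl diphosphate synthase, so that last step was not covered. Of 9 genes described as enzymes of the plastid isoprenoid pathway, 8 were tested and 0 were called or had a limma p under 0.05, with a median log2 fold change of 0.081. The smallest p belonged to Os02t0117100-01, a diphosphocytidyl-methylerythritol synthase, with 47.1 and 47.0 in NT and 40.6 and 39.3 in OsNAC14OX (log2 fold change -0.21, limma, adjusted p = 0.557). Next came Os07t0190000-01, similar to deoxyxylulose phosphate synthase 2, the first enzyme of that pathway, with 2.50 and 2.62 in NT and 5.59 and 3.25 in OsNAC14OX. Its groups did not overlap, but its OsNAC14OX libraries differed by more than replicate 2 differed from NT (log2 fold change 0.60, limma, adjusted p = 0.589).

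The gibberellin genes that share the ent intermediate also had 0 calls and 0 genes with a limma p under 0.05 among 6 tested of 7 listed, with a median log2 fold change of -0.10. Os06t0110000-01 (similar to DWARF3), an oxidase of gibberellin synthesis, had 2.67 and 3.17 in NT and 2.13 and 2.66 in OsNAC14OX (limma, adjusted p = 0.756). The ent-kaurene oxidase Os06t0570100-01 had 13.4 and 14.9 in NT and 12.3 and 13.4 in OsNAC14OX (limma, adjusted p = 0.828). The groups were separated by a narrow margin in the first and overlapped in the second.

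Some terpene synthase genes outside the 10 genes had larger fold changes than any phytoalexin gene. The list held 23 genes described as terpene synthases or kaurene oxidases, 6 of which are also in the gibberellin or neighbour lists. Of the 23 genes, 13 were tested and 0 were called, against 0.555% of all transcripts tested. At an unadjusted limma p under 0.05, 5 of the 13 were higher, against 4.09% of all transcripts tested. The median log2 fold change of the 13 was 0.082. Without OsNAC14OX replicate 2 the number of calls was 2. Os03t0348200-00, a terpene synthase-like protein, had 7.86 and 8.06 in NT and 19.5 and 17.7 in OsNAC14OX, and its log2 fold change of 1.15 ± 0.10 (SE) missed the threshold at an adjusted p of 0.0511 (limma). The study lists this gene as up-regulated in OsNAC14OX, by a 2-fold change and its own test, for which it states no adjustment. Os03t0362500-00, another terpene synthase family protein, had 1.76 and 2.17 in NT and 4.38 and 4.61 in OsNAC14OX (log2 fold change 0.92, limma, adjusted p = 0.125). A sesquiterpene synthase, Os08t0167800-01, named after its values were seen, had 5.83 and 5.58 in NT and 34.7 and 19.8 in OsNAC14OX (log2 fold change 2.04, limma, adjusted p = 0.141). None of the 3 overlapped between groups. Sesquiterpene synthases use farnesyl diphosphate and make volatile or defense compounds other than the diterpenoids.

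Among the markers of the defense response, only transcripts of phenylalanine ammonia-lyase lay above NT, and those of this gene did not all do so. Of 5 genes 4 were tested and 0 called, with a median log2 fold change of -0.32. Os11t0592200-01, described as a chitin-binding protein, had 69.2 and 78.1 in NT and 47.0 and 43.7 in OsNAC14OX (log2 fold change -0.64, limma, adjusted p = 0.164). A transcript of phenylalanine ammonia-lyase (Os02t0626100-02), the entry enzyme of phenylpropanoid synthesis, had 103.8 and 78.8 in NT and 126.3 and 140.8 in OsNAC14OX (log2 fold change 0.61, limma, adjusted p = 0.406). The groups did not overlap in either transcript and lay on opposite sides. For phenylalanine ammonia-lyase, Os02t0626100-01 was also higher (702.1 and 600.0 in NT, 727.5 and 793.5 in OsNAC14OX). Its transcript Os02t0626100-03 was lower (443.9 and 303.0 in NT, 297.3 and 294.7 in OsNAC14OX). Os12t0240900-00 lay under the filter, at 0.382 and 0.466 in NT and 0.0975 and 0.0266 in OsNAC14OX. These further transcripts were named after their values were seen.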

How the data were processed

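Leaf RNA of 2 NT and 2 OsNAC14OX samples was analysed, each mapped to its column by its label. The authors trimmed single-end reads (Trimmomatic 0.32), removed reads below Q20, mapped them with TopHat to IRGSP-1.0 with RAP-DB gene models, and deposited FPKM per transcript. How FPKM were computed was not stated in the sources used here. The labels name a strand-specific method and the study's methods an unstranded kit. Besides FPKM, the authors deposited quantile-normalized log2(FPKM + 1) values. Another 4 columns belong to 2 libraries of no sample here. They entered that normalization and were not used. The authors' fold change, p-value, KEGG and functional chart columns were not used either. Coordinates are as deposited. The deposited length of several transcripts equals end minus start, so starts may count from 0.

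The deposited log2 values were fitted with limma 3.58.1 in R 4.3.3 (lmFit, eBayes with trend, two-sided, no covariate) over the 30251 transcripts that had 2 or more libraries with an FPKM of 1 or higher, with Benjamini-Hochberg adjustment over all of them. Fold changes on the FPKM + 1 scale understate the changes of low genes. No count model was fitted, since FPKM are not counts. Summaries and plots used Python 3.11.15, pandas 2.3.3, numpy 2.4.6 and matplotlib 3.10.9. The test was tried on simulated data before use. There, 1 of 50 transcripts with a true log2 change of 0.75 was called, while 44 of the 50 had an unadjusted limma p under 0.05. A change of this size lies under the 2-fold threshold of a call. The small number of calls therefore follows from that threshold and does not measure the power of the test. Read depth was recovered from the steps of low FPKM values, of which 93.3% to 93.6% were whole within 0.1 read in each library. PCR reads are not independent molecules, so read numbers cover counting error only.

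Members and lists were chosen with earlier results of these data known. Lists were matched on deposited descriptions or IDs: precursor supply, gibberellin branch, cluster neighbours, other terpene synthase genes, elicitor signalling, defense markers, and leaf, root, and pollen and anther markers. Named genes were all members, OsNAC14, neighbours with a call or an FPKM of at least 5, the called genes of each list or else the 2 with the smallest p, and the 5 genes with the nearest profile. Gene names of members come from the list that defined them. Alternatives were other normalizations, a pseudocount of 0.1 or 0.5, no filter or a minimum FPKM of 5, gene sums of FPKM, eBayes without trend, a replicate block, each library left out, and other thresholds.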

Additional observations from a re-analysis of the deposited data

How the results depend on the processing

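None of the phytoalexin transcripts was called under any alternative, including the replicate block and a call by unadjusted p with the fold. Their highest log2 fold change in any fit was 0.89, for CYP99A3 without OsNAC14OX replicate 1. This is under a 2-fold difference, so no alternative with the fold threshold could call them, and their agreement adds no support. The 4 transcripts with an unadjusted limma p under 0.05 became 2 with an FPKM of at least 5 and 1 to 5 with a library left out. Fewer transcripts of these genes passed the stricter filter. For other terpene synthase genes, the count of calls moved from 0 to 1 with an FPKM of at least 5, to 1 with FPKM summed per gene, to 2 with an unadjusted p, and to between 0 and 2 with a library left out. The elicitor list had 0 to 2 calls with a library left out. The cause of these shifts was not tested. Of the log2 fold changes of single phytoalexin transcripts, 84 values kept their sign and their side of the threshold and 2 reversed, that of KSL7 without OsNAC14OX replicate 1 (0.014) and that of CPS2 without OsNAC14OX replicate 2 (-0.20). With each library left out in turn, KSL7 ranged from -0.23 to 0.014 and CPS2 from -0.20 to 0.62. Over the alternatives, adjusted p (limma) of KSL8 ranged from 0.0828 to 0.939. Same-numbered libraries did not deviate together over all tested transcripts (r = 0.0037 across 30251 transcripts, which are not independent replicates). A correlation over all transcripts cannot exclude a pairing that affects some of them. With the replicate block, 0 of all transcripts were called and 4 phytoalexin transcripts had an unadjusted p under 0.05. Where a group was left with 1 library, that library was assumed to vary like the others. Promoter motifs were not run. KSL4, KSL10, CYP99A2 and CYP76M7 lay under an FPKM of 1 in all libraries, so small differences in them were not detectable at this depth.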

Other observations

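The mean centred profile of the 7 tested phytoalexin transcripts over the 4 libraries was -0.16 and -0.21 in NT replicates 1 and 2 and 0.06 and 0.31 in OsNAC14OX replicates 1 and 2, on the normalized log2 scale. Among 25754 other genes, the 5 with the smallest Euclidean distance to it were Os01t0359400-03 (an NB-ARC domain protein, distance 0.0125), Os07t0479350-00 (a hypothetical gene, 0.0282), Os01t0139200-02 (a Phox/Bem1p domain protein, 0.0332), Os01t0660200-01 (the acidic class III chitinase OsChib3a, 0.0352) and Os05t0326675-00 (a ribonuclease H-like protein, 0.0361). NB-ARC proteins include immune receptors, and class III chitinases cut fungal cell walls. The NB-ARC transcript had an FPKM of 7.36 and 7.35 in NT and of 8.78 and 10.5 in OsNAC14OX (limma, adjusted p = 0.512). The chitinase had 30.5 and 29.1 in NT and 35.2 and 40.0 in OsNAC14OX (limma, adjusted p = 0.473). Neither was called. Neither overlapped between groups, which follows from their choice by closeness to this profile. The profile itself averages transcripts with positive and negative log2 fold changes. Likeness over 4 libraries is a description of their order and spread, and many genes can reach it.

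A MAP kinase transcript of the elicitor list, Os03t0285800-02, had an FPKM of 22.2 and 25.1 in NT, 115.0 in OsNAC14OX replicate 1 and 9.13 in OsNAC14OX replicate 2. WRKY45 (Os05t0322900-01) had 76.5, 89.1, 168.1 and 69.4 in the same order. Both were named after their values were seen. The Rubisco small chain transcript Os12t0291100-02 had 413.3 and 285.3 in NT and 794.3 and 810.8 in OsNAC14OX (log2 fold change 1.29, limma, adjusted p = 0.175), and the chlorophyll-binding transcript Os07t0577600-02 had 4.61 and 4.72 in NT and 5.32 and 6.77 in OsNAC14OX (limma, adjusted p = 0.613). PR1a (Os07t0129200-01) had 70.4 and 90.1 in NT and 33.4 and 58.8 in OsNAC14OX (limma, adjusted p = 0.586). PBZ1 (Os12t0555500-01) had 38.2 and 39.8 in NT and 25.1 and 33.6 in OsNAC14OX (limma, adjusted p = 0.626). These markers of pathogen response were also named after their values were seen. They lay below NT, while the phenylalanine ammonia-lyase transcript Os02t0626100-02 of the same list lay above it. Another transcript of that enzyme, Os02t0626100-03, lay below NT.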
